A study of Mus musculus with 60 samples.

Results

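GABA-A receptors are chloride channels opened by the transmitter GABA, and each is built of 5 subunits drawn from a large family. The genes described here are 7 members of that family, taken by symbol from the deposited count and RPKM tables: the alpha subunits Gabra2, Gabra3, Gabra4 and Gabra5, the beta subunits Gabrb1 and Gabrb2, and the delta subunit Gabrd. They are 7 of the 19 GABA-A receptor subunit rows, and of 21999 genes in all. All 7 passed the filter on low counts in every comparison, so no member is missing from any count below.

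As background, the alpha subunit sets much of a receptor's affinity and drug binding, and together with the beta subunit it forms the GABA site. Receptors with alpha2 or alpha3 sit mostly at synapses. Receptors with alpha5, and those with alpha4 and delta, lie largely outside synapses and carry tonic inhibition. Alpha5 is best known from the hippocampus, and alpha4 with delta from the striatum, the thalamus and the dentate gyrus.

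The 60 libraries came from 20 mice, and each mouse gave 1 library of prefrontal cortex, 1 of striatum and 1 of hippocampus. The mice were wild-type (WT) or Glo1 knockouts (KO). From 8 to 12 weeks of age their food held 1.4 mg (normal diet) or only 5 µg (lacking diet) of vitamin B6, abbreviated VB6, in each 100 g. Each of the 4 combinations held 5 mice, and the 4 combinations in 3 regions gave 12 groups of 5 libraries. Strain, sex and the way the knockout was made are not given in the sources used here. Glo1 encodes glyoxalase I, the main enzyme that clears methylglyoxal, a by-product of glycolysis that has been described as an agonist of GABA-A receptors. VB6 in its active form is the cofactor of the enzymes that make GABA (Gad1, Gad2) and break it down (Abat).

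Poly(A) RNA was read as single 75 bp reads, and library totals ran from 7640047 to 13928265 counts. RNA integrity numbers (RIN) ran from 7.6 to 9.3. Glo1 had 299 to 734 counts in WT libraries and 0 to 10 in KO libraries. The labelled VB6 level, in a material the labels do not name, was 2.25 to 5.63 ng/µl on the lacking diet and 58.25 to 78.09 ng/µl on the normal diet. Marker genes followed the labelled regions: the summed RPKM of 7 striatal markers averaged 1845 in striatum, 43.0 in prefrontal cortex and 22.6 in hippocampus. The sum of 6 cortical markers averaged 177 in prefrontal cortex and 53.5 and 53.2 in striatum and hippocampus, and that of 6 hippocampal markers 407, against 211 in prefrontal cortex and 58.7 in striatum. No marker of any list was at 0 throughout a region. The sum of 5 choroid plexus markers ran from 5.40 to 1239 among hippocampal libraries. All KO mice carry batch number 1 in the labels and all WT mice batch number 2, so genotype and batch cannot be told apart. Fewer cells of a type and less RNA per cell cannot be told apart in these bulk samples either.

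The genes lie on 5 chromosomes of GRCm38 (GENCODE vM21). Gabra2 (chr5:70957597-71095849) and Gabra4 (chr5:71569749-71658308), both on the minus strand, and Gabrb1 (chr5:71658113-72149037), on the plus strand, neighbour each other. The others are Gabrd (chr4:155384980-155398112, minus), Gabra5 (chr7:57407672-57510059, minus), Gabrb2 (chr11:42419757-42629028, plus) and Gabra3 (chrX:72432681-72656848, minus). Glo1 is on chromosome 17, so no member flanks the deleted gene. The 5′ ends of Gabra4 and Gabrb1 share 46 exonic bases on opposite strands, and Gabra5 shares 148 with the antisense gene Gm9962. The counting's strand setting is not given, so reads in those stretches cannot be assigned. Of the 75-base stretches of member transcripts, 2.76% in Gabra5 and 0.205% in Gabra2 occurred in another gene's transcripts, and none in the other members.

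Promoter windows from RefSeq (GRCm38.p6) matched 6 of the 7 members, all but Gabrd. The 250 bases before the start are shown for Gabra3 and Gabra5, which led among the members in prefrontal cortex and in hippocampus. They are also shown for Gabra2, which had the strongest correlation of the 7 with the GC index of the library, defined further on. Each reads 5′ to 3′ on the strand of the gene. Capitals mark CG dinucleotides in Gabra2 and Gabra5, and the match to TATAAA (here on the opposite strand) in Gabra3.
Gabra2: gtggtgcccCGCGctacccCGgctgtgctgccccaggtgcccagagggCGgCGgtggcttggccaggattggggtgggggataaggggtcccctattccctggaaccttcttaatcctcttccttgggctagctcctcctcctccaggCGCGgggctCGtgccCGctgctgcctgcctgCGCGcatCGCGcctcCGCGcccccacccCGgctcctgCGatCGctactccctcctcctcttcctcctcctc
Gabra3: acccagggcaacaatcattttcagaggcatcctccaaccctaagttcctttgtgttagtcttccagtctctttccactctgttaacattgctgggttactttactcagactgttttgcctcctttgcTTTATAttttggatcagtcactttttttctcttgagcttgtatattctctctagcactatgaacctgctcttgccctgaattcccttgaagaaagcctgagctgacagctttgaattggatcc
Gabra5: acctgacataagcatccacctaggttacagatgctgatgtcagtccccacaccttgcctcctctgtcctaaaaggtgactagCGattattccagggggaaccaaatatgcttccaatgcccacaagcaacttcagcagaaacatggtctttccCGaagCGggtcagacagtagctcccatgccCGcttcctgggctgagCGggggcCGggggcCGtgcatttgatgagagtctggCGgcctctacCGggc
The Gabra2 window (chr5:71095850-71096099) held 18 CG dinucleotides, a number reached by 21.7% of the 32851 windows of the same length. The Gabra5 window (chr7:57510060-57510309) held 9, reached by 40.3%. The Gabra3 window (chrX:72656920-72657169) held none, as did 7.87% of all windows. The motif GGGCGG, searched on both strands, was present for Gabra2 and absent for Gabra3 and Gabra5, and 32.7% of all windows hold it. TATAAA, also searched on both strands, was present only for Gabra3 among these 3 windows, and 12.4% of all windows hold it.

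Each region had a different leading alpha subunit. Gabra3 led in prefrontal cortex, Gabra4 in striatum and Gabra5 in hippocampus, each in all 20 libraries of its region by the ranges below. Levels are given as RPKM, which is scaled by gene length, so genes can be compared with each other. In prefrontal cortex Gabra3 averaged 89.9 ± 4.14 RPKM (SD, n = 20), and the next members, Gabrb1 at 45.5 ± 2.22 and Gabra5 at 45.4 ± 4.03, did not differ beyond their spread. Gabra4 (38.8 ± 4.11), Gabrb2 (34.3 ± 3.78) and Gabra2 (26.4 ± 4.85) followed with overlapping ranges, and Gabrd came last at 5.45 ± 0.782. In striatum the order was Gabra4 (89.2 ± 12.2), Gabra2 (35.8 ± 6.19), Gabrb1 (34.9 ± 3.33), Gabrb2 (25.9 ± 2.07), Gabra5 (20.2 ± 2.45), Gabra3 (19.0 ± 2.95) and Gabrd (13.3 ± 2.88). Of the neighbours in that order, only Gabra4 and Gabra2 had ranges that did not overlap. In hippocampus Gabra5 averaged 141 ± 14, Gabrb1 63.9 ± 2.85, Gabra2 45.9 ± 7.27, Gabra4 37.5 ± 4.13, Gabra3 32.3 ± 1.94, Gabrb2 27.4 ± 1.95 and Gabrd 1.97 ± 0.417.

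**Figure D1:**
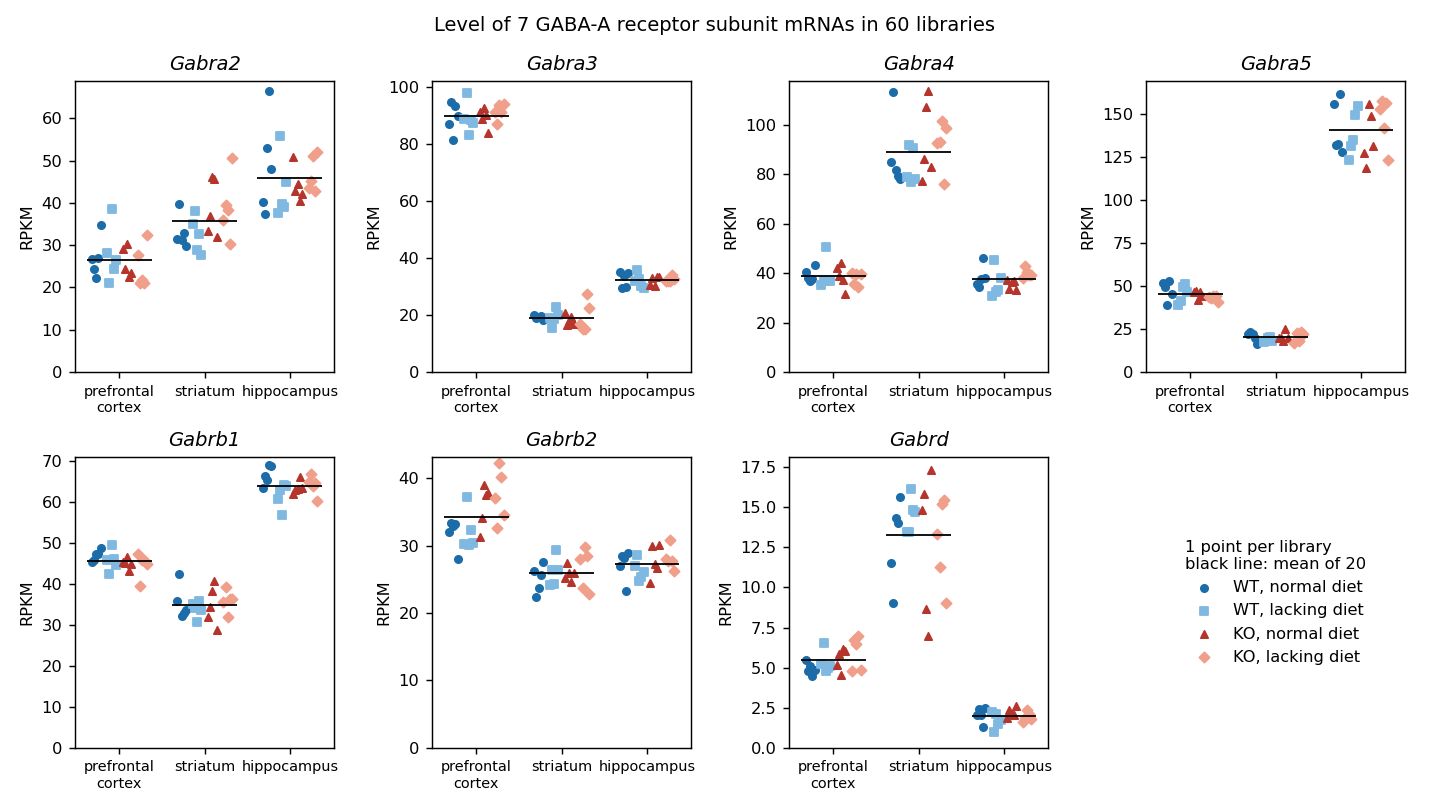
RPKM (y axis, from 0) of each subunit in each library, by region (x axis), with 1 point per library, symbols for genotype and diet, and a black line at the mean of the 20 libraries of a region. Gabra3 stands highest in prefrontal cortex (81.5 to 98.0), Gabra4 and Gabrd in striatum (76.0 to 114 and 6.97 to 17.3) and Gabra5 and Gabrb1 in hippocampus (119 to 162 and 56.8 to 69.0), while KO and WT libraries overlap within every region.

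As shares of the summed RPKM of the 7 subunits, Gabra3 made up 31.5% ± 1.41 (SD, n = 20) in prefrontal cortex but 8.03% ± 1.36 in striatum and 9.26% ± 0.746 in hippocampus. Gabra4 made up 37.3% ± 2.51 in striatum against 13.6% ± 1.06 and 10.7% ± 0.745 in prefrontal cortex and hippocampus. Gabra5 made up 40.3% ± 2.57 in hippocampus against 15.9% ± 1.2 in prefrontal cortex and 8.47% ± 0.885 in striatum. The beta subunits kept a narrower range: Gabrb1 took 15.9%, 14.7% and 18.3% in prefrontal cortex, striatum and hippocampus, and Gabrb2 12.0%, 10.9% and 7.85%. Gabrd went from 1.91% ± 0.314 in prefrontal cortex to 5.66% ± 1.49 in striatum and 0.568% ± 0.136 in hippocampus. The sum of the 7 was 286 ± 11 RPKM in prefrontal cortex, 238 ± 17.9 in striatum and 350 ± 20.2 in hippocampus.

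**Figure D2:**
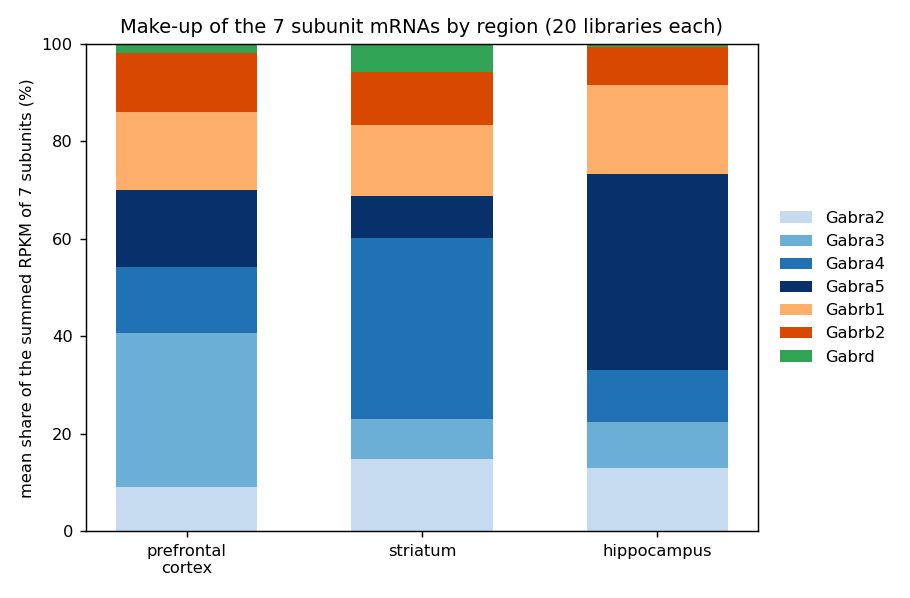
Mean share of each subunit (y axis, percent) in the summed RPKM of the 7 subunits, by region (x axis), over 20 libraries each. The largest block is Gabra3 in prefrontal cortex (31.5%), Gabra4 in striatum (37.3%) and Gabra5 in hippocampus (40.3%).

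Region differences were tested in an edgeR quasi-likelihood fit of all 60 libraries, with Benjamini-Hochberg adjustment over 13930 genes and a threshold of 0.05. In the comparison of striatum with prefrontal cortex all 7 members passed (3 higher, 4 lower in striatum), where 69.9% of all genes passed. Between hippocampus and prefrontal cortex 6 of 7 passed (3 higher, 3 lower), where 59.3% of all genes did, and between hippocampus and striatum 6 of 7 (4 higher, 2 lower in hippocampus), where 66.4% did. With most genes past the threshold, the size of the differences tells more than the counts. The median absolute log2 difference over the members was 1.15, 0.74 and 0.79 in the 3 comparisons, beside 0.30, 0.21 and 0.26 over all genes tested. Over the 7 other GABA-A receptor subunits tested it was 0.53, 0.42 and 0.52. The members were chosen with earlier results of these data known. This contrast and the non-overlap counts below are therefore descriptions and not tests. Non-overlap of libraries was a stricter measure. The 20 libraries of striatum and prefrontal cortex did not overlap in RPKM for 3 of 7 members, against 18.3% of all genes. For hippocampus and prefrontal cortex this held for 4 of 7, against 10.9%, and for hippocampus and striatum for 5 of 7, against 16.2%.

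**Figure D3:**
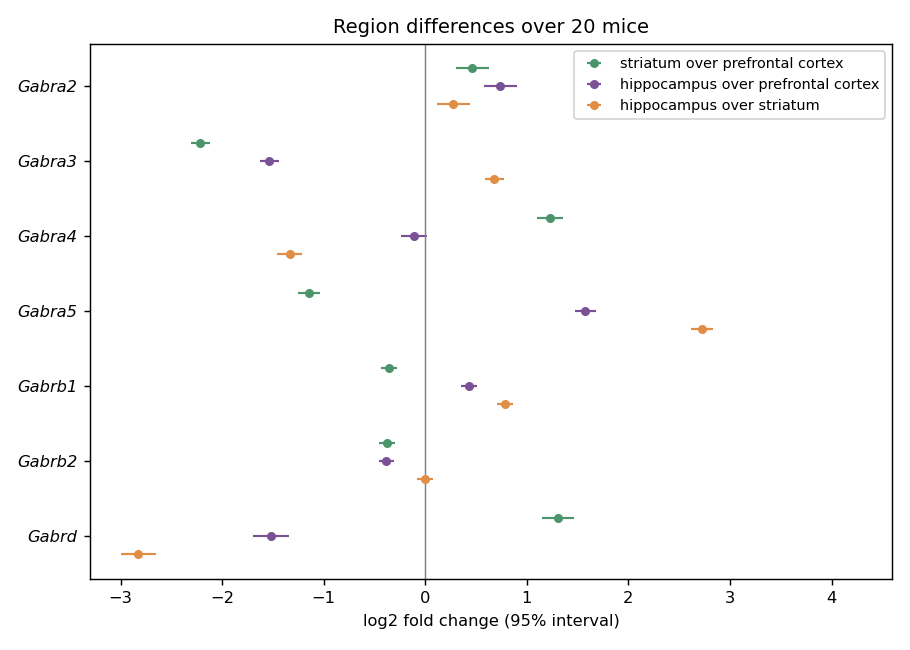
Log2 fold change between regions (x axis) for each subunit (y axis), with 95% intervals from the edgeR fit of all 60 libraries. Gabra3 lies lowest in striatum over prefrontal cortex (-2.22), Gabra5 highest in hippocampus over striatum (2.72), and Gabrd lowest in hippocampus over striatum (-2.83).

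Gabra3 encodes alpha3, a subunit of synaptic receptors. Its level ran from 81.5 to 98.0 RPKM in prefrontal cortex (median 90.1), from 15.1 to 27.5 in striatum (median 19.0) and from 29.3 to 35.9 in hippocampus (median 32.4). No library of one region reached the range of another. Its log2 difference was -2.22 (SE 0.0479, adjusted p = 7.72e-45) for striatum and -1.54 (SE 0.0465, adjusted p = 8.13e-37) for hippocampus, both against prefrontal cortex. The highest striatal value, 27.5 RPKM in KO mouse 339 on the lacking diet, came from the library with the highest cortical (68.7) and hippocampal (75.1) marker sums of that region. Across striatal libraries, with group means taken off, Gabra3 had a correlation of -0.83 with the striatal marker sum and 0.73 with the hippocampal marker sum (20 libraries, given as a description). The part of neighbouring tissue in the striatal level was not tested.

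Gabra5 encodes alpha5. It ran from 119 to 162 RPKM in hippocampus (median 139), from 38.9 to 52.7 in prefrontal cortex (median 45.1) and from 16 to 25.3 in striatum (median 19.8), again with no overlap between any pair of regions. Hippocampus exceeded striatum by 2.72 on the log2 scale (SE 0.0552, a 6.61-fold difference, adjusted p = 1.63e-46), and in 20 of 20 mice. It exceeded prefrontal cortex by 1.58 (SE 0.0525, 2.98-fold), also in 20 of 20 mice.

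Gabra4 encodes alpha4, which partners delta outside synapses. It ran from 76.0 to 114 RPKM in striatum (median 85.8), from 31.5 to 50.6 in prefrontal cortex (median 37.7) and from 30.6 to 46.3 in hippocampus (median 37.6). Striatum stood above both other regions without overlap, by 1.23 on the log2 scale over prefrontal cortex (SE 0.0633, 2.34-fold), while hippocampus was lower than striatum by -1.34 (SE 0.0635). Hippocampus and prefrontal cortex overlapped almost fully. Their log2 difference was -0.11 (95% interval -0.24 to 0.01, adjusted p = 0.124), with hippocampus higher in 8 of 20 mice. That difference passed the threshold with RIN as a covariate (-0.19, adjusted p = 0.0116), without mouse 226 (-0.15, adjusted p = 0.0337), and with the mouse block and a GC covariate described below (-0.11, adjusted p = 0.000264).

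Gabrd encodes delta, the extrasynaptic partner. It had the lowest mean level of the 7 in every region. It ran from 6.97 to 17.3 RPKM in striatum (median 14.2), from 4.47 to 6.97 in prefrontal cortex (median 5.13) and from 0.955 to 2.60 in hippocampus (median 2.06). Hippocampal libraries lay below all others. The lowest striatal value, in KO mouse 381 on the normal diet, and the highest cortical value, in KO mouse 339 on the lacking diet, both came to 6.97, so striatum and prefrontal cortex met at that point. Striatum was 2.47-fold above prefrontal cortex (log2 1.31, SE 0.0773), and hippocampus was lower than striatum by -2.83 (SE 0.0859, adjusted p = 2.46e-37). Gabra4 and Gabrd were thus both highest in striatum, but from prefrontal cortex to hippocampus Gabrd differed by -1.52 (95% interval -1.70 to -1.34) and Gabra4 by -0.11. The intervals of these differences do not overlap.

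Gabra2 encodes alpha2, found at synapses and at the axon's initial segment. It was highest in hippocampus (37.3 to 66.6 RPKM, median 43.9), then striatum (27.6 to 50.6, median 34.2), then prefrontal cortex (21.0 to 38.7, median 25.4), and all 3 ranges overlapped. The hippocampal excess over prefrontal cortex was 0.74 on the log2 scale (SE 0.0818) and was present in 20 of 20 mice. Striatum exceeded prefrontal cortex by 0.46 (SE 0.0817, adjusted p = 1.32e-06) in 18 of 20 mice. This call did not hold in WT mice alone (0.25, adjusted p = 0.0571), nor in the 5 WT mice on the normal diet (0.30, adjusted p = 0.132). Hippocampus exceeded striatum by 0.28 (SE 0.0813, adjusted p = 0.0023), a call that did not hold in KO mice alone (0.11, adjusted p = 0.417).

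Gabrb1 and Gabrb2 encode the beta1 and beta2 subunits, which carry part of the GABA site and link the receptor to its anchors. Gabrb1 was highest in hippocampus (56.8 to 69.0 RPKM, median 63.8), without overlap with prefrontal cortex (39.3 to 49.5, median 45.8) or striatum (28.8 to 42.3, median 34.6). Its log2 differences were smaller than those of the alpha subunits 3 to 5 in their leading contrasts: 0.79 (SE 0.0404) between hippocampus and striatum and 0.43 (SE 0.0402) between hippocampus and prefrontal cortex. Gabrb2 was highest in prefrontal cortex (28.0 to 42.2 RPKM, median 33.4), above striatum in 20 of 20 mice. Striatum (22.5 to 29.7, median 26.0) and hippocampus (23.3 to 30.8, median 27.5) did not differ beyond their spread. Their log2 difference was -0.00 with a 95% interval from -0.08 to 0.07 (adjusted p = 0.926).

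Genotype and diet did not move any of the 7 past the threshold in any region. In each region the 20 libraries were fitted with a mean per group, and p-values were adjusted over 13223 genes in prefrontal cortex, 13311 in striatum and 13393 in hippocampus. For KO against WT over both diets, 0 of 7 members passed in prefrontal cortex (0.673% of all genes did), 0 of 7 in striatum (0.203%) and 0 of 7 in hippocampus (0.164%). The count of all genes in prefrontal cortex went from 89 to between 46 and 390 when 1 mouse was left out, with the highest count without mouse 226. For the lacking against the normal diet over both genotypes, 0 members and 0% of all genes passed in each region by edgeR, and 0 genes by DESeq2 or limma. The edgeR p before adjustment was under 0.05 for 434 genes in prefrontal cortex, 407 in striatum and 288 in hippocampus. For the interaction (the diet difference in KO less that in WT), 0 members and 0% of genes passed in each region by edgeR, and 0 genes by DESeq2 or limma. The p before adjustment was under 0.05 for 419 genes in prefrontal cortex, 226 in striatum and 1265 in hippocampus. For the comparison of the KO lacking group with the WT normal group, 0 members passed, beside 0.280%, 0.0826% and 0.0149% of all genes in prefrontal cortex, striatum and hippocampus. DESeq2 and limma on log2(RPKM + 1) also called 0 members in all of these. At an unadjusted p under 0.05, edgeR gave 2 of 21 values (7 members in 3 regions) for genotype, 0 for diet, 2 for the interaction and 1 for KO lacking against WT normal. Of all genes, 14.1%, 5.78% and 4.24% had such a p for genotype in prefrontal cortex, striatum and hippocampus. In the same order the shares were 3.28%, 3.06% and 2.15% for diet and 3.17%, 1.70% and 9.45% for the interaction. For KO lacking against WT normal they were 13.0%, 5.06% and 3.62%.

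**Figure D4:**
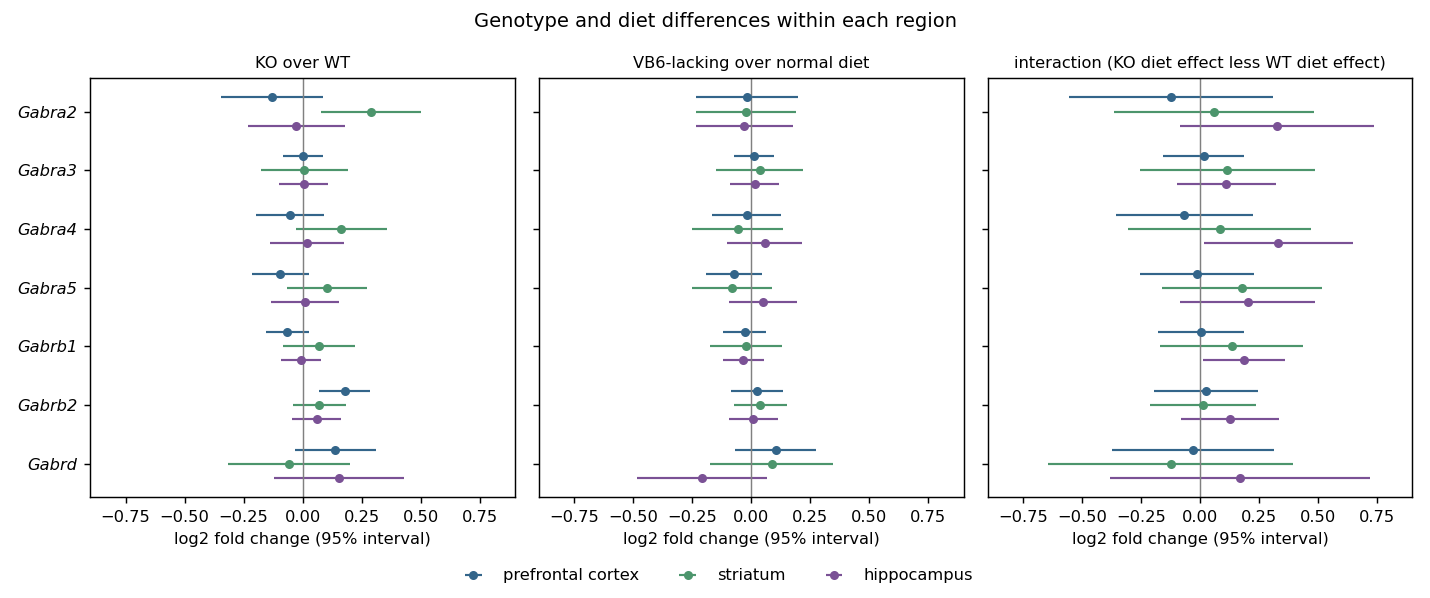
Log2 fold change (x axis) of each subunit (y axis) for KO over WT, for the VB6-lacking over the normal diet, and for their interaction, with 95% intervals from the edgeR fit of each region's 20 libraries. Point estimates run from -0.13 to 0.29 for genotype, from -0.21 to 0.10 for diet and from -0.12 to 0.33 for the interaction, and none passed the threshold after adjustment.

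The data bound the size of these differences. Genotype coincides with batch number, so the genotype intervals bound both together. For genotype, the 95% intervals of the 21 values reached from -0.34 to 0.50 on the log2 scale, so the farthest bound was a 1.42-fold difference. For diet they reached from -0.49 to 0.35, a 1.40-fold difference at most, and for the interaction from -0.64 to 0.74, or 1.67-fold. The intervals of all 21 diet values and of 20 of 21 genotype values lay within 0.5 of zero on the log2 scale. The KO and WT libraries did not separate for any of the 7 members in any region, where 0.0933% of all genes in prefrontal cortex, 0.0861% in striatum and 0.0718% in hippocampus had no overlap. The libraries of the 2 diets also overlapped for all 7 members in each region, as for all genes tested (0% without overlap in prefrontal cortex, striatum and hippocampus).

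The smallest p for genotype belonged to Gabrb2 in prefrontal cortex. WT mice had 32.0, 33.4, 33.0, 33.3 and 28.0 RPKM on the normal diet and 30.2, 37.2, 30.1, 32.3 and 30.4 on the lacking diet. KO mice had 31.3, 34.2, 39.1, 37.5 and 37.9 on the normal diet and 37.1, 32.6, 42.2, 40.1 and 34.6 on the lacking diet. Of the 10 KO libraries 9 lay above the WT median of 32.2, but the groups overlapped. The log2 difference was 0.18 (SE 0.0536, unadjusted p = 0.0025, adjusted p = 0.117), with 0.17 on the normal and 0.19 on the lacking diet. Without mouse 226, whose 37.2 RPKM was the highest WT value, it was 0.21 and passed the threshold (adjusted p = 0.0309). Adjusted p ran from 0.0509 to 0.907 over the other settings. In the same region Gabrb2 had a correlation of -0.82 with the summed astrocyte markers once group means were taken off (20 libraries). The sum of these 4 markers, none of them at 0 throughout the region, had a lower mean in KO mice, with overlapping ranges: 296 ± 30.9 (SD, n = 5; range 268 to 338) on the normal and 280 ± 23.0 (253 to 309) on the lacking diet, against 343 ± 29.2 (317 to 393) and 334 ± 38.9 (278 to 375) in WT mice. The sum of 4 microglial markers was 70.2 ± 2.29 and 67.0 ± 3.46 in KO mice and 76.6 ± 6.41 and 81.1 ± 5.29 in WT mice, in the same order. The part of either in the Gabrb2 difference was not tested.

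Gabra2 in striatum had the largest genotype difference of the 7. WT mice had 31.4, 39.7, 31.3, 32.9 and 29.9 RPKM on the normal diet and 35.0, 38.1, 28.9, 32.7 and 27.6 on the lacking diet. KO mice had 33.4, 36.9, 46.2, 45.6 and 32.0 on the normal diet and 36.0, 39.5, 38.4, 30.2 and 50.6 on the lacking diet. KO exceeded the WT median of 32.0 in 8 of 10 libraries, with 3 KO libraries above every WT library. The log2 difference was 0.29 (SE 0.103, unadjusted p = 0.00924, adjusted p = 0.740). It shrank to 0.12 (adjusted p = 0.583) with the GC index of the library, defined further on, as a covariate. Gabra2 differed in the other direction in prefrontal cortex (-0.13, SE 0.106), but the test of a genotype effect that differs between regions gave an adjusted p of 0.690 (unadjusted 0.0308). In that test 0.0215% of all genes and 0 members passed. For diet effects that differ between regions, 0% of genes and 0 members passed by edgeR, and the p before adjustment was under 0.05 for 260 genes.

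In hippocampus the interaction was positive for all 7 members, with a median of 0.19 on the log2 scale beside -0.01 over all genes, and 0 passed. With the GC index of the library, measured from the region mean, as a covariate, Gabra2 turned to -0.11 and the other 6 stayed positive (0.04 to 0.54), again with 0 past the threshold. The members share the same libraries, so their signs are not independent. Gabra4 had the largest value (0.33, 95% interval 0.02 to 0.65, adjusted p = 0.517). Its mean RPKM was 38.4 ± 4.69 (SD, n = 5) in WT mice on the normal diet, 35.9 ± 5.84 in WT mice on the lacking diet, 35.5 ± 2.02 in the KO normal group and 40.1 ± 1.85 in the KO lacking group. The KO libraries ran from 33.1 to 37.4 on the normal diet and from 38.2 to 43.0 on the lacking diet, without overlap, as for 2.51% of all genes and for no other member, while the WT libraries overlapped (34.3 to 46.3 and 30.6 to 45.2). The diet difference of Gabra4 in KO mice alone was 0.22 (95% interval -0.00 to 0.44, adjusted p = 0.719 by edgeR). The mean GC index measured from the region mean was 0.15 in the KO normal group and -0.07 in the KO lacking group. In WT mice it went the other way, from -0.11 on the normal to 0.06 on the lacking diet. With the index as a covariate the interaction was 0.06 for Gabra4 (adjusted p = 0.912), 0.11 for Gabrb1 (adjusted p = 0.801) and 0.54 for Gabrd (adjusted p = 0.736). Gabra2 had 0.33 as well, with a wider interval (-0.08 to 0.74). For Gabrb1 it was smaller but more precise (0.19, 95% interval 0.01 to 0.36, adjusted p = 0.516), with 66.6 ± 2.33, 61.6 ± 3.0, 63.4 ± 1.60 and 64.0 ± 2.41 in the same order. Gabrd, the member with the fewest counts, had the largest diet value: -0.21 in hippocampus (95% interval -0.49 to 0.07), with at most 94 counts in a hippocampal library.

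Within groups the members did not vary independently, and the spread of 4 of them followed a GC index of the library. A GC index was computed for each library: the median log2 deviation from the group mean over genes at or above the upper quartile of transcript GC content (54.4%), less that over genes at or below the lower quartile (44.8%). It ran from -0.51 to 0.42 over the 60 libraries. Gabra2 (transcript GC 38.4%), Gabra4 (42.2%) and Gabrb1 (40.9%) had correlations of -0.92, -0.88 and -0.76 with the index, and Gabrd (54.7%) one of 0.73. Gabra3 (43.1%), Gabra5 (47.1%) and Gabrb2 (44.0%) had -0.19, -0.28 and -0.07. Gabra3 and Gabrb2 thus showed weak correlations although their transcript GC also lay below the lower quartile. The index comes from expression values of genes grouped by transcript GC, and the GC content of the reads was not measured. Gabra2, Gabra4, Gabrb1 and Gabrd fall in the gene groups that define it, so the direction of their correlations is no independent finding. These correlations are descriptions over 60 libraries that share 20 mice. Among 13616 genes, 1380 had a correlation of -0.7 or less and 1223 one of 0.7 or more, so the 4 subunits were not alone in this. The index had a correlation of -0.42 with RIN.

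**Figure D5:**
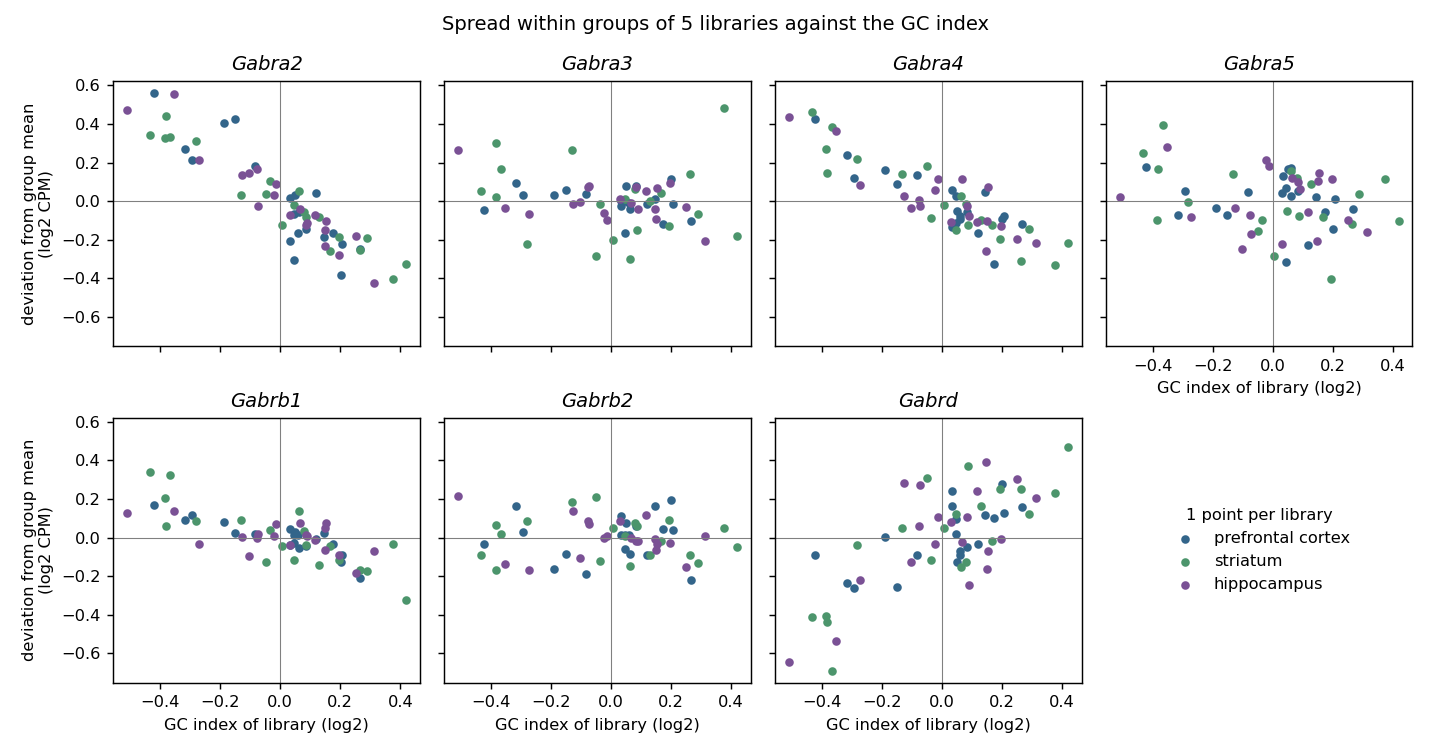
Deviation of each subunit from its group mean (y axis, log2 CPM) against the library's GC index (x axis, log2), with 1 point per library coloured by region. Gabra2, Gabra4 and Gabrb1 go down with the index (correlations -0.92, -0.88 and -0.76), Gabrd goes up (0.73), and the other 3 show weaker relations.

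The same 4 subunits moved with each other. With group means taken off, the correlation over 60 libraries was 0.84 between Gabra2 and Gabra4, 0.76 between Gabra4 and Gabrb1 and 0.67 between Gabra2 and Gabrb1, and -0.70, -0.70 and -0.73 between Gabrd and each of these. Gabra4 and Gabrd, which pair in receptors and were both highest in striatum, thus had opposite deviations from library to library, in striatum as well (-0.75 over 20 libraries). Gabra5 went with the summed neuronal markers instead (0.84 over 60 libraries, and 0.69, 0.91 and 0.86 within prefrontal cortex, striatum and hippocampus). The share of these relations that comes from tissue make-up or library chemistry was not tested. The index was close to balanced over genotype and diet in prefrontal cortex, where its group means ran from -0.02 to 0.04, measured from the region mean. In striatum it averaged -0.12 and -0.06 in the KO groups and 0.13 and 0.06 in the WT groups (lacking and normal diet). With the index as a covariate, 0 of 7 members passed in any genotype or diet comparison.

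Genes whose profile over all 60 libraries was most like a member's were taken by Pearson correlation of log2 CPM. They were Gfra2, Tox and Ipcef1 for Gabra3 (0.988 to 0.983), Rgs7bp, Cdk17 and Ppp1r7 for Gabra4 (0.987 to 0.984) and Prkca, Pip5k1b and Kctd4 for Gabra5 (0.987 to 0.984). For Gabrd they were Ngef, Plxnd1 and Kcnt1 (0.979 to 0.977), for Gabrb1 C77370, Fam188a and Zeb2 (0.970 to 0.961), for Gabra2 Capza2, Bmi1 and Ptma (0.937 to 0.926) and for Gabrb2 Adra1a, Faxc and Atrnl1 (0.878 to 0.874). The 60 libraries include all 3 regions, so these correlations contain the region differences. With group means taken off, the nearest genes were Chpt1 for Gabra2 (0.934), Cadm2 for Gabra4 (0.923), Braf for Gabrb1 (0.873), Clcn7 for Gabrd (0.836), Vsnl1 for Gabra3 (0.830), Sept3 for Gabra5 (0.817) and Opa1 for Gabrb2 (0.765). The next nearest to Gabra5 were Snap25 and Rbfox3, both general neuronal genes and both in the neuronal marker list.

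The wider GABA system was read from 32 genes that anchor, traffic or supply these receptors. Between striatum and prefrontal cortex 27 of 32 passed the threshold (16 higher, 11 lower in striatum). Of all genes, 69.9% passed in that comparison, 59.3% between hippocampus and prefrontal cortex and 66.4% between hippocampus and striatum. The largest were Slc32a1, which loads GABA into vesicles (1.87), and Gad2, a GABA-synthesizing enzyme (1.75), and on the lower side Gabbr2, a subunit of the metabotropic GABA-B receptor (-2.05), and Iqsec3, a postsynaptic partner of gephyrin (-1.21). Between hippocampus and prefrontal cortex 25 of 32 passed (11 higher, 14 lower), led by Slitrk3, an adhesion protein of inhibitory synapses (0.67), and Hap1, a trafficking adaptor (0.56), with Gabbr2 (-0.69) and Plcl2 (-0.65) at the other end. Between hippocampus and striatum 29 of 32 passed (10 higher, 19 lower), with Iqsec3 (1.39) and Gabbr2 (1.36) highest and Slc32a1 (-2.08) and Gad2 (-1.78) lowest. The median difference of the list was 0.10, -0.03 and -0.12 in the 3 comparisons, beside 0.01, 0.01 and -0.01 over all genes. In the genotype, diet, interaction and combined comparisons 0 of 32 passed in every region by edgeR, beside 0% to 0.673% of all genes. From 0 to 7 had an unadjusted p under 0.05, beside 1.70% to 14.1% of all genes. The 7 were for KO against WT in prefrontal cortex, where the share of all genes was 14.1%. Gad1, Gad2 and Abat, the VB6-dependent enzymes, were among the 32.

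Of the 12 other GABA-A receptor subunit rows, 7 passed the low-count filter over all libraries. Of these, 5 passed the test in each of the 3 region comparisons. The share of all genes was 69.9% for striatum against prefrontal cortex, 59.3% for hippocampus against prefrontal cortex and 66.4% for hippocampus against striatum. Gabrr2 was among the 5 in both comparisons with prefrontal cortex. It had at most 6 counts in a library there, 13 in striatum and 12 in hippocampus. It thus passed the filter only through the regions where it was higher, and these calls carry no weight. Within a region, 0 of the 6 tested passed in any genotype or diet comparison, beside 0% to 0.673% of all genes. The gamma subunits Gabrg1 and Gabrg3 link receptors to synaptic anchors. Gabrg3 followed the order of Gabrd, with 13.7 ± 1.30 RPKM in striatum, 9.10 ± 0.545 in prefrontal cortex and 5.05 ± 0.380 in hippocampus (SD, n = 20). Gabrg1 averaged 6.27 ± 1.2, 6.09 ± 0.932 and 6.19 ± 0.966 in the same regions, which did not differ beyond their spread.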

How the data were processed

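The authors deposited gene counts and RPKM (read counts per unit of gene length and sequencing depth) for 21999 genes. The submitters' processing notes name STAR 2.7.1a, HTSeq 0.9.1 and the build mm10, with no role or order. The deposited RPKM values imply gene lengths equal to the GENCODE exon unions for all 7 members. The strand setting is not given in the sources used here.

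Counts were filtered (filterByExpr, minimum count 10, minimum total 15), scaled by TMM and tested with edgeR 4.0.16 (R 4.3.3), by the quasi-likelihood test with Benjamini-Hochberg adjustment at 0.05. Genotype and diet were fitted within each region on 20 libraries, and regions on all 60. DESeq2 1.42.0 and limma 3.58.1 on log2(RPKM + 1) were alternatives. A mouse gave 1 library per region, so mouse number pairs the regions. A fit with the mouse as a block was therefore run too. The GC index as a covariate was added after seeing the data. Precision is limited by 5 mice per group and, for Gabrd in hippocampus, by counts of at most 94.

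The members and gene lists were chosen with earlier results of these data known. Named genes were the members, Glo1, other GABA-A subunits, the 2 partners with the largest region difference in each direction, and each member's most correlated genes. On simulated counts with the prefrontal genotype design (13152 genes), 56% of 1.25-fold, 82% of 1.5-fold and 98% of 2-fold changes were recovered. For striatum against prefrontal cortex (13762 genes) these shares were 82%, 88% and 98%.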

Additional observations from a re-analysis of the deposited data

Results flagged for a closer look

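Of 84 groups of 5 libraries (7 subunits in 12 groups), 5 held a library whose RPKM stood apart from the other 4 by Dixon's ratio of gap to range. Chance sets apart about 1 in 20 groups. Gabra4 was 50.6 in the prefrontal library of WT mouse 241 on the lacking diet, against 35.1 to 37.2 in the other 4, and 114 in the striatal library of WT mouse 273 on the normal diet, against 78.1 to 85.2. These libraries had GC indices of -0.42 and -0.43, among the 3 lowest of the 60. Gabra5 was 25.3 in the striatal library of KO mouse 381 on the normal diet, against 18.3 to 19.9. In prefrontal cortex Gabrb2 was 28.0 in WT mouse 317 on the normal diet, against 32.0 to 33.4, and Gabrd was 6.54 in WT mouse 226 on the lacking diet, against 4.80 to 5.23.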

How the results depend on the processing

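Of 672 recomputed region values of the members, 657 kept their direction and side of the threshold, 3 newly passed it, 12 no longer did and 0 reversed. Of 2457 genotype and diet values, 2456 kept theirs and 1 newly passed. Among 2517 values past the threshold in neither fit, 218 had the other sign. With a minimum absolute log2 difference of 1, the members called fell to 4, 3 and 3 for striatum against prefrontal cortex, hippocampus against prefrontal cortex and hippocampus against striatum. Leaving out 1 mouse gave 0 to 1 members for KO against WT in prefrontal cortex, where Gabrb2 passed without mouse 226. With the mouse as a replicate block, 7, 6 and 6 members passed in the region comparisons, Gabra4 between hippocampus and prefrontal cortex had a log2 difference of -0.11 (adjusted p = 0.115), and no member's call changed. Shares taken from CPM, not per length, put Gabrb1 first in prefrontal cortex (35.2%) and hippocampus (40.4%), and moved 16 of 21 shares beyond 1 SD. All-gene counts for KO against WT in prefrontal cortex (89) ran from 16 on the normal diet only to 309 with the GC index, and from 46 to 390 with 1 mouse left out (mice 381 and 226). The count for KO lacking against WT normal there (37) ran from 21 with limma to 277 with the GC index. Region counts of all genes with a minimum log2 difference of 1 were 2098, 1245 and 2014. The causes of these shifts were not tested.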
